A study of Mus musculus with 12 samples.

Results

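The 10 genes described here coat, fill and empty the lipid droplet, or bring fatty acids to it: the perilipins Plin2, Plin3, Plin4 and Plin5, the lipases Pnpla2, Lipe and Lpl, the triglyceride synthases Dgat1 and Dgat2, and the fatty acid carrier Fabp3. They were taken by symbol from the 25239 symbols of each of 2 count tables, and all 10 passed the filter on low counts in both. The group was chosen by the measured Plin4 counts, cko against Ctrl, which moved in opposite directions in the 2 tables, so that difference is given below as a description with no test. The RNA of mouse heart cardiomyocytes was sequenced in 4 groups of 3 libraries, Ctrl and Chaf1a cko in the first set, and Ctrl 3M and Chaf1a cko 3M in the 3M set. Both cko groups carried Chaf1a f/f alleles with Myh6-Cre, in which a heart muscle promoter drives the recombinase, and both Ctrl groups carried Chaf1a f/f alleles and no Cre, although their genotype label reads WT. The presence of Cre and the loss of Chaf1a, which encodes the large subunit of the chromatin assembly factor CAF-1, therefore cannot be told apart. No label states an age for the first set or spells out 3M. The cells had been cultured, per the labels' protocols. Separate animals are not stated for the libraries of a group, so each p-value rests on the spread between libraries alone, and that spread may be technical.

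Triglyceride is stored in droplets bounded by a phospholipid layer, and perilipins are the proteins that coat that layer and control the access of lipases. The heart burns mostly fatty acids, which reach it as lipoprotein triglyceride cleaved by lipoprotein lipase at the capillary wall or as free fatty acids, and many of them pass through a short-lived droplet pool before oxidation. Synthesis by the DGAT enzymes fills that pool, and adipose triglyceride lipase, encoded by Pnpla2, takes the first acyl chain off when it is emptied.

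Library totals ran from 10569325 to 20896673 counts. The level of Chaf1a did not separate the groups: it was 22.7, 32.3 and 18.8 CPM (counts relative to the TMM-scaled library size) for replicates 1 to 3 of Ctrl and 29.0, 24.5 and 22.0 CPM for those of Chaf1a cko. Its 3M values were 1.88, 4.74 and 9.75 CPM in Ctrl 3M against 8.34, 5.58 and 5.54 CPM in Chaf1a cko 3M. The counts thus showed no loss of Chaf1a, with log2 fold changes of 0.03 (SE 0.18) and, in the 3M set, 0.25 (SE 0.61). They cannot check the labels, as reads from exons that Cre leaves in place are counted too. In addition, 4648 bases of Chaf1a exons overlap Ubxn6 on the opposite strand. The groups below are the libraries so labelled, and every direction rests on those labels. The sum of Y-linked Uty, Kdm5d, Eif2s3y and Ddx3y spanned 50.05 to 61.1 CPM in Ctrl and 115 to 133.99 CPM in Chaf1a cko, so that genotype and sex mixture cannot be told apart in the first set. In the 3M set these sums overlapped only narrowly, at 393.4 to 646 CPM in the Ctrl 3M libraries, and 355 to 394.05 CPM in Chaf1a cko 3M. The cko range lay lower there, and a difference in sex mixture was not tested in that set either. Chemoreceptor genes, which cardiomyocytes should lack, gave a background with a median of 0.554 and a 95th percentile of 2.70 CPM per kb of exon in the first set, and 0 for both in the 3M set.

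Plin4 differs from the other perilipins in its sequence, and this bears on how its reads could be counted. Much of its coding sequence is a run of 99-base units: of 41 successive units in its 4212 coding bases, 25 were at least 60% identical to the next. Among 75-base windows of the longest coding transcript, 693 of 5682 (12.2%) occurred more than once within Plin4, against 0 windows in each of Plin2, Plin3 and Plin5. The sources used here do not say how the authors' counting treated reads that fit several places. Below are 3 successive units from exon 6 of 9, read 5′ to 3′ on the minus strand of chromosome 17 (GRCm38, GENCODE vM21), with capitals for bases that differ from repeat a. Repeat a lies at chr17:56105203-56105301, repeat b at chr17:56105104-56105202 and repeat c at chr17:56105005-56105103.
Plin4 repeat a: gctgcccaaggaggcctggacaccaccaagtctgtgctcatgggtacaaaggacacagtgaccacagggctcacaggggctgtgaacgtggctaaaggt
Plin4 repeat b: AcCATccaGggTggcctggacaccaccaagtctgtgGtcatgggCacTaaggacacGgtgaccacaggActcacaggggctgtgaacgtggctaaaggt
Plin4 repeat c: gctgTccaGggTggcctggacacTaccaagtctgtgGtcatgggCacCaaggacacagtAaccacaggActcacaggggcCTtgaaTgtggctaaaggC
Repeat b shared 88 of 99 bases with repeat a, and repeat c shared 86 of 99.

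Plin4 and Plin5 are neighbours on the same strand of chromosome 17, so the 250 bases before an annotated start of each are shown together. They come from RefSeq on GRCm38.p6, which held upstream sequence for 7 of the 10 genes. Capitals mark TATAA on the gene strand and AGGTCA on either strand, the core of the TATA box and the half-site of nuclear receptors such as the PPARs. The Plin4 sequence is chr17:56109783-56110032 and the Plin5 sequence is chr17:56117549-56117798, both on the minus strand.
Plin4 upstream: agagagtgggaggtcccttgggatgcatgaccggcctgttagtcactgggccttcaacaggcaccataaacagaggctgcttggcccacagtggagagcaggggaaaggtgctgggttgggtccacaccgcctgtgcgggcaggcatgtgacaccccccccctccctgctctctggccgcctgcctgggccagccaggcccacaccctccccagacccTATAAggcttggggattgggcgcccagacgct
Plin5 upstream: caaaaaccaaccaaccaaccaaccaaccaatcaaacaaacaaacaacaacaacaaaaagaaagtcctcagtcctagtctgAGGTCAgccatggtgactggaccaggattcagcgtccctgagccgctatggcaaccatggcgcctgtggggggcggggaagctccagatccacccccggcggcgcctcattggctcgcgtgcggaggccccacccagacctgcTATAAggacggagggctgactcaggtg
TATAA ended 27 bases before the start used in Plin4 and 22 bases before that used in Plin5, and stood in no other matched gene of the 10. These are not the outermost annotated starts. The RefSeq gene spans reach to 56109948 (Plin4) and 56117606 (Plin5), so part of each window, with its TATAA, lies inside the annotated gene. The sequence before another annotated Plin5 start, chr17:56117299-56117548, held neither TATAA nor AGGTCA. It was found in 15.997% of all 32851 upstream sequences. AGGTCA was found in Plin5 and Plin2, and in 14.0% of all sequences. AGGTCANAGGTCA, a direct repeat of the half-site with a spacer of any base, was in 0 of the 7 matched genes and in 0.0335% of all sequences, and a match or its absence in this window is a description only.

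Per kilobase of exon, Fabp3 and Lpl were the highest of the 10 in both sets, and in the first set Lpl stood much nearer to Pnpla2 than to Fabp3. In Ctrl of the first set Fabp3 was at 1086 ± 50.5 CPM per kb (SD, n = 3), Lpl at 63.9 ± 1.03 and Pnpla2 at 41.8 ± 2.13. The other 7 genes lay between 4.40 (Lipe) and 9.51 (Dgat2) CPM per kb, and neighbours in that order differed by less than their spread except Dgat2 and Plin4. Plin5 in Chaf1a cko was the level nearest to the chemoreceptor background, at 3.23 ± 0.496 CPM per kb. In Ctrl 3M the order was Fabp3 (618 ± 172), Lpl (318 ± 70.1), Pnpla2 (54.6 ± 7.80), Plin4 (35.1 ± 10.02), Plin2 (33.0 ± 9.17), Lipe (28.9 ± 7.67), Plin3 (24.9 ± 9.06), Dgat2 (19.6 ± 8.51), Plin5 (18.6 ± 8.20) and Dgat1 (15.6 ± 2.86) CPM per kb, and from Plin4 down each neighbour was within the spread of the next by this length. In Chaf1a cko 3M Plin4 stood at 73.6 ± 11.2 CPM per kb, next to Pnpla2 at 90.7 ± 17.7. The order rests on the length used. Over the longest coding transcript, Plin2 (61.4 CPM per kb) and Lipe (45.9) of Ctrl 3M stood above Plin4 (35.2), and in Ctrl of the first set Plin5 (5.10) was lowest and Lipe stood at 6.97. The ratio of Lpl to Fabp3 per kb in Ctrl 3M was 0.514 over all annotated exons and 1.31 over the longest coding transcript. Levels are not compared between the sets, which were tabulated apart.

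**Figure D1:**
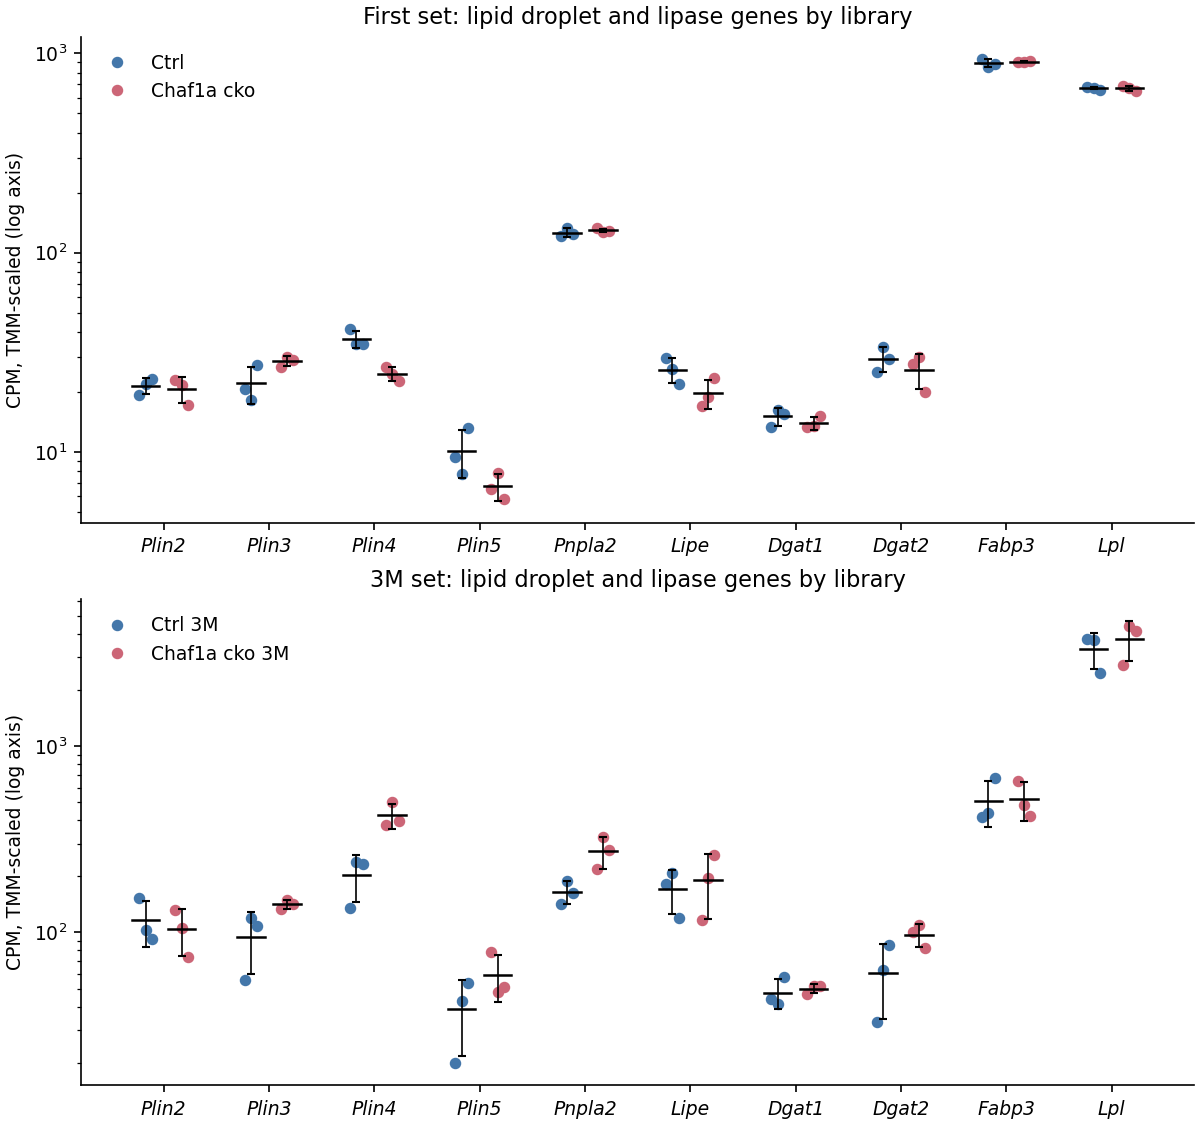
CPM of the 10 genes in each library of the first set (top) and the 3M set (bottom), on log axes that differ between the panels. Points are libraries, horizontal bars are group means and vertical bars are SDs (n = 3). Plin4 in Chaf1a cko lay below every Ctrl library in the first set and above every Ctrl 3M library in the 3M set.

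Plin4 is the perilipin of adipocytes, skeletal muscle and heart whose long repeat region binds membranes. In the first set its level was 41.2, 34.8 and 34.9 CPM in Ctrl and 26.7, 24.6 and 22.6 CPM in Chaf1a cko. All cko libraries lay below all Ctrl libraries, and the log2 fold change was -0.58 (SE 0.13), that is 0.667 times the Ctrl level. The 3M libraries showed the opposite: its level was 136, 239.6 and 233 CPM in the Ctrl 3M libraries, and 378, 499 and 398 CPM in Chaf1a cko 3M. Here all cko libraries lay above all Ctrl libraries, with a log2 fold change of 1.07 (SE 0.26), or 2.10-fold higher. Ctrl 3M replicate 1 was the lowest library, and without it the log2 fold change was 0.85. Over all left-out libraries the value ran from -0.65 to -0.50 in the first set and from 0.85 to 1.21 in the 3M set. Of all genes tested, 16.2% did not overlap between groups in the first set (8.33% higher and 7.85% lower in cko) and 14.1% did not in the 3M set (7.21% higher and 6.89% lower). The summed background of chemoreceptor genes also differed between the first-set groups, at 3144 to 3389 CPM in Ctrl and 2970 to 3013 CPM in cko, and its part in the Plin4 difference was not tested. In bulk RNA, fewer cells of a type and less RNA per cell cannot be told apart.

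Plin5 is the perilipin of tissues that oxidise fat, and it ties droplets to mitochondria. Its first-set levels were 9.50, 7.76 and 13.1 CPM in Ctrl and 6.56, 7.86 and 5.82 CPM in Chaf1a cko, so the groups overlapped. The log2 fold change was -0.59 (SE 0.25, 95% interval -1.12 to -0.06), which did not pass the test across all genes (edgeR quasi-likelihood test, adjusted p = 0.435). It was -0.35 without Ctrl replicate 3, the highest library. Its 3M levels were 19.9, 43.0 and 53.3 CPM in the Ctrl 3M libraries, and 78.3, 48.0 and 51.2 CPM in Chaf1a cko 3M. Only cko replicate 1 lay above every Ctrl library. The log2 fold change was 0.61 (SE 0.37, edgeR adjusted p = 0.776), and 0.29 without Ctrl 3M replicate 1.

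Plin3 coats small nascent droplets in most tissues. Its first-set levels were 20.8, 18.3 and 27.3 CPM in Ctrl and 26.8, 30.1 and 29.1 CPM in Chaf1a cko, where Ctrl replicate 3 reached into the cko range. The log2 fold change was 0.37 (SE 0.16, edgeR adjusted p = 0.432). Its 3M levels were 55.4, 119.8 and 108 CPM in the Ctrl 3M libraries, and 134.1, 149 and 143 CPM in Chaf1a cko 3M. The groups did not overlap, which held for 7.21% of all tested genes in this direction. The log2 fold change of 0.59 (SE 0.28) did not pass the test (edgeR adjusted p = 0.731), and it was 0.32 without Ctrl 3M replicate 1.

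Plin2, the widespread perilipin whose protein is stable only on a droplet, showed no such pattern. Its first-set levels were 19.3, 22.0 and 23.3 CPM in Ctrl and 23.1, 21.7 and 17.2 CPM in Chaf1a cko, a log2 difference of -0.06 (95% interval -0.41 to 0.28, edgeR adjusted p = 0.948). They were 153, 103 and 92.1 CPM in the Ctrl 3M libraries, and 132.5, 106 and 74.0 CPM in Chaf1a cko 3M, a log2 difference of -0.15 (95% interval -0.78 to 0.48, edgeR adjusted p = 0.927). The groups overlapped in both sets. Ctrl 3M replicate 1 was the highest library for Plin2 and the lowest for Plin3, Plin4 and Plin5.

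Among the lipases, Pnpla2 was higher in every library of Chaf1a cko 3M. Its first-set levels were 121, 133.4 and 124 CPM in Ctrl and 132.5, 127 and 129 CPM in Chaf1a cko, with a log2 fold change of 0.04 (95% interval -0.10 to 0.18, edgeR adjusted p = 0.921). Its 3M levels stood at 142, 189 and 164 CPM in the Ctrl 3M libraries, while Chaf1a cko 3M stood at 219, 326 and 276 CPM. The groups did not overlap, as for 7.21% of all tested genes in this direction, and the log2 fold change was 0.73 (SE 0.22, 95% interval 0.24 to 1.22), or 1.66-fold. The unadjusted p was 0.00828 and the adjusted p 0.607 (edgeR), so the difference was not called. Pnpla2 protein is switched on by the coactivator encoded by Abhd5 and held back by the inhibitor encoded by G0s2, 2 genes named here after their values were seen. In the first set G0s2 was at 9.23, 7.24 and 8.70 CPM in Ctrl and 9.56, 9.72 and 10.7 CPM in Chaf1a cko, higher in all cko libraries (log2 fold change 0.25, SE 0.22, edgeR adjusted p = 0.794). The 3M set had it lower in all cko libraries, at 22.3, 26.0 and 20.9 CPM in the Ctrl 3M libraries, and 19.7, 20.4 and 15.02 CPM in Chaf1a cko 3M (log2 fold change -0.33, SE 0.25, edgeR adjusted p = 0.822). Of all tested genes, 8.33% were higher without overlap in the first set and 6.89% lower without overlap in the 3M set. Any bearing of G0s2 on Pnpla2 was not tested. Abhd5 overlapped between the groups in both sets, and its 3M levels were 41.3, 42.3 and 31.2 CPM in the Ctrl 3M libraries, and 42.1, 42.0 and 41.0 CPM in Chaf1a cko 3M (log2 fold change 0.12, edgeR adjusted p = 0.925).

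Lipe encodes hormone-sensitive lipase, which cleaves the diglyceride that Pnpla2 leaves. Its first-set levels were 29.5, 26.2 and 22.0 CPM in Ctrl and 17.1, 18.9 and 23.5 CPM in Chaf1a cko, with cko replicate 3 inside the Ctrl range. The log2 fold change was -0.38 (SE 0.17, edgeR adjusted p = 0.443). Lipe in the 3M libraries spread more within the groups than between them, at 183, 208 and 120.2 CPM in the Ctrl 3M libraries, and 116, 196 and 262 CPM in Chaf1a cko 3M (log2 fold change 0.17, SE 0.32, edgeR adjusted p = 0.933).

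Dgat1 and Dgat2 encode the unrelated enzymes that add the last acyl chain of triglyceride. Dgat1 did not separate the groups: it was at 13.3, 16.3 and 15.6 CPM in Ctrl and 13.3, 13.5 and 15.1 CPM in Chaf1a cko, and at 44.0, 41.2 and 57.5 CPM in the Ctrl 3M libraries, and 46.9, 51.7 and 51.4 CPM in Chaf1a cko 3M. Its log2 fold changes were -0.11 (SE 0.18) and 0.07 (SE 0.21), with edgeR adjusted p = 0.914 and 0.963. Dgat2 stood at 25.2, 33.5 and 29.2 CPM in Ctrl and 27.6, 29.9 and 20.1 CPM in Chaf1a cko (log2 fold change -0.18, SE 0.16, edgeR adjusted p = 0.804). It was at 33.1, 62.8 and 85.4 CPM in the Ctrl 3M libraries, and 100.01, 109 and 82.7 CPM in Chaf1a cko 3M. Cko replicate 3 lay just below Ctrl replicate 3 and the other cko libraries lay above all Ctrl libraries. The log2 fold change was 0.69 (SE 0.32, edgeR adjusted p = 0.722), and 0.39 without Ctrl 3M replicate 1. The ratio of Dgat2 to Dgat1 counts, which does not depend on library scaling, was 0.753, 1.52 and 1.48 in the Ctrl 3M libraries and 2.13, 2.12 and 1.61 in Chaf1a cko 3M, which did not overlap. First-set ratios did overlap, at 1.89, 2.05 and 1.87 in Ctrl and 2.08, 2.21 and 1.33 in Chaf1a cko. Several ratios of gene pairs were computed, and this ratio was not tested. With 3 against 3 libraries an exact permutation test allows no p under 0.1.

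Lpl and Fabp3, the most abundant of the 10, differed least in the first set. Fabp3, the fatty acid carrier of heart muscle cytosol, was at 939, 857 and 885 CPM in Ctrl and 905, 906 and 912 CPM in Chaf1a cko. Its log2 difference was 0.02, with a 95% interval of -0.06 to 0.10 (edgeR adjusted p = 0.917). Lpl was at 678, 674 and 657 CPM in Ctrl and 688, 669 and 649 CPM in Chaf1a cko, a log2 difference of -0.0019 with a 95% interval of -0.08 to 0.08 (edgeR adjusted p = 0.996). These are the narrowest first-set intervals among the 9 genes that have one. In the 3M set the intervals were wide: Fabp3, at 417, 437 and 672 CPM in the Ctrl 3M libraries, and 652, 484 and 420.0 CPM in Chaf1a cko 3M, gave 0.03 (95% interval -0.55 to 0.61), and Lpl, at 3772, 3739 and 2483 CPM and 2736, 4434 and 4148 CPM, gave 0.18 (95% interval -0.39 to 0.74). Angptl4 encodes a secreted inhibitor of lipoprotein lipase and was also named after its values were seen. It was at 23.7, 21.7 and 28.0 CPM in Ctrl and 20.6, 12.5 and 13.7 CPM in Chaf1a cko, which did not overlap (log2 fold change -0.65, SE 0.19, edgeR adjusted p = 0.153), and its 3M levels overlapped (log2 fold change 0.06, SE 0.43). In the first set 7.85% of all tested genes were lower without overlap.

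In all, 0 of the 9 genes other than Plin4 passed edgeR's adjusted threshold of 0.05 in either set. The share of all tested genes that passed was 1.18% in the first set (270 of 22965, with 0.74% higher and 0.435% lower), and for the 3M set it was 0.0144% (2 of 13925, with 0.00718% higher and 0.00718% lower). DESeq2 called 0 of the 9 as well, against 4.21% of the genes it tested in the first set, with 0.519% for the 3M set. At an unadjusted p under 0.05, Plin3, Plin5 and Lipe passed in the first set and Pnpla2 in the 3M set, against 10.1% and 6.93% of all tested genes. Over the 9 genes the median log2 fold change was -0.06 for the first set and 0.18 for the 3M set, and over all tested genes it was -0.0057 and -0.02. Values were above 0 for 3 of the 9 in the first set and for 8 of the 9 in the 3M set. Without Plin4, whose separation in both sets goes with the choice of the genes, the groups did not overlap for 0 of the 9 genes in the first set and for 2 in the 3M set (Plin3 and Pnpla2, higher), beside the shares of 16.2% and 14.1% of all tested genes given above.

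**Figure D2:**
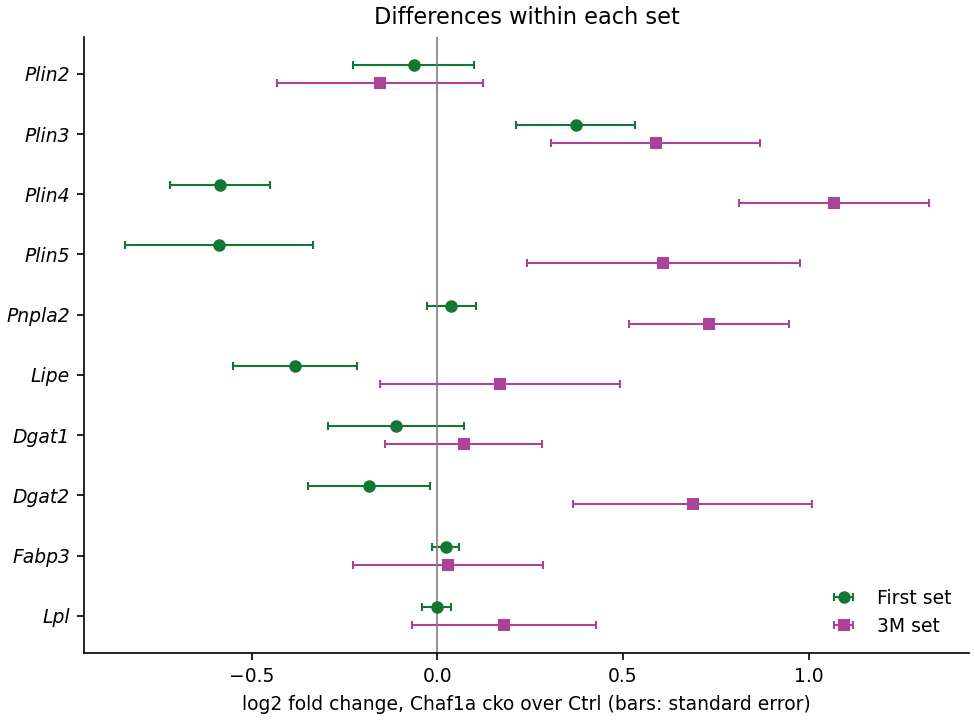
Log2 fold changes of Chaf1a cko over Ctrl for the 10 genes, with circles for the first set, squares for the 3M set and bars for standard errors. Plin4 lay at -0.58 and 1.07, and Pnpla2, Plin5, Lipe and Dgat2 were the other genes whose bars did not meet between the sets.

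Whether the genotype difference itself changed between the sets was tested as an interaction in a fit of all 12 libraries, for the 9 genes other than Plin4. Of these, 0 passed (edgeR interaction, adjusted threshold 0.05), where 15 of 22803 genes (0.0658%) did. Genes could pass the filter of this fit through either set, and the 3M set alone had 13925 tested genes. The fit also used the same dispersion of a gene for both sets. The median coefficient of variation of the 10 genes was 10.2% in Ctrl and 27.8% in Ctrl 3M. At an unadjusted p under 0.05, 2 of the 9 passed, Pnpla2 and Plin5, against 9.47% of all genes. The largest differences were those of Plin5 (1.24 log2 units higher in the 3M set, SE 0.49, edgeR adjusted p = 0.525), Dgat2 (0.91, SE 0.42, adjusted p = 0.528) and Pnpla2 (0.73, SE 0.21, adjusted p = 0.395). For Pnpla2 the 95% interval of the difference was 0.26 to 1.201, and the DESeq2 adjusted p was 0.0678. The interval of Fabp3 was -0.56 to 0.65 and that of Lpl -0.36 to 0.80, which leaves room for differences of either sign.

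The make-up of the perilipin coat genes does not depend on how libraries are scaled. Because Plin4 chose the genes, the shares of the other perilipins were compared within the summed Plin2, Plin3 and Plin5 counts per kb of exon, a sum set after the data were seen. Plin3 took 34.6% ± 1.72 of that sum in Ctrl (SD, n = 3) against 45.5% ± 4.06 in Chaf1a cko, with all cko libraries above all Ctrl libraries. Plin5 made up 28.5% ± 3.13 and 19.3% ± 1.54, with all cko libraries below. The two-sided exact permutation test gave p = 0.1 for each, which is the smallest p that 3 against 3 allows, so neither can pass 0.05. Plin2 overlapped, at 36.9% ± 4.83 and 35.2% ± 3.70 (exact permutation p = 0.6). In the 3M set all of these shares overlapped: Plin3 took 32.0% ± 9.09 in the Ctrl 3M libraries, and 39.9% ± 6.996 in Chaf1a cko 3M, Plin5 23.7% ± 8.96 and 29.4% ± 4.54, and Plin2 44.3% ± 17.4 and 30.7% ± 4.72, with exact permutation p of 0.3, 0.5 and 0.2. Ctrl 3M replicate 1, where Plin2 made up 64.2%, sets most of these 3M differences. The Plin2 difference was -13.6 percentage points with it and -3.65 without it, that of Plin3 7.95 and 2.79, and that of Plin5 5.67 and 0.857. As a description with no test, Plin4 made up 27.8% ± 4.29 of the summed Plin2 to Plin5 counts per kb in Ctrl and 20.4% ± 1.18 in Chaf1a cko, and 31.0% ± 4.46 and 43.6% ± 5.75 in the 3M groups. Shares of a sum move against each other, so a larger share of one perilipin lowers those of the rest.

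The genes whose levels followed Plin4 most closely across the 12 libraries were found by centring log2(CPM + 1) within each table and taking the root mean square distance, among 8334 genes with a mean of at least 10 CPM in both tables. These profiles hold the Plin4 difference between cko and Ctrl that chose the genes, so the distances and ranks are a description with no test. Plin4 itself lay 0.488 log2 units from a flat profile. The nearest were Abca2 (0.180), a transporter of lipids in endosomal membranes, Acss1 (0.213), the mitochondrial acetyl-CoA synthetase, Ppfibp2 (0.22), a liprin, Ogdhl (0.221), a relative of the oxoglutarate dehydrogenase subunit, and Usp54 (0.227), of the ubiquitin peptidase family. Abca2 was at 36.5, 34.2 and 38.8 CPM in Ctrl and 34.6, 33.5 and 32.2 CPM in Chaf1a cko, and at 59.8, 117 and 109 CPM in the Ctrl 3M libraries, and 159, 219.5 and 186 CPM in Chaf1a cko 3M. It was thus low in the same Ctrl 3M library and high in the same cko 3M library as Plin4, while its first-set groups lay closer together. First-set means in Ctrl and Chaf1a cko were 37.0 and 24.6 CPM for Plin4. For the other near genes they were 25.8 and 23.0 (Acss1), 20.3 and 18.1 (Ppfibp2), 12.8 and 9.76 (Ogdhl) and 54.4 and 52.8 CPM (Usp54). Among the other lipid genes of the 10 that reached the level, Dgat2 was nearest (distance 0.28, rank 30), then Pnpla2 (0.298, rank 47) and Plin3 (0.408, rank 789), and Plin2 was farthest (0.629, rank 5926).

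Plin4, Plin5 and Plin3 lie on chromosome 17 beside the floxed gene. In RefSeq on GRCm38.p6, Chaf1a is at chr17:56040416-56068026 on the plus strand, and Plin4 (chr17:56100587-56109948), Plin5 (chr17:56111597-56117606) and Plin3 (chr17:56278962-56290511) are on the minus strand. Plin4 is 32.6 kb, Plin5 43.6 kb and Plin3 211 kb beyond the end of Chaf1a. Ctrl and cko were both Chaf1a f/f here. Within 500 kb of Chaf1a, edgeR called 0 of 29 other tested genes in the first set, and of 24 in the 3M set it called 0. The shares of all tested genes called were 1.18% and 0.0144%. At an unadjusted p under 0.05, 1 of the 29 and 2 of the 24 passed, against 10.1% and 6.93% of all tested genes. Their median log2 fold change was 0.07 for the first set and 0.22 for the 3M set, against -0.0057 and -0.02 over all tested genes. Values were above 0 for 17 of 29 in the first set and 16 of 24 in the 3M set. The other 7 of the 10 genes lie on chromosomes 4 (Plin2, Fabp3), 7 (Pnpla2, Lipe, Dgat2), 8 (Lpl) and 15 (Dgat1). Exons of Lipe overlap an opposite-strand gene over 918 bases, those of Fabp3 over 161 and those of Plin4 over 17, and without the strand setting of the counting such reads cannot be told apart.

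**Figure D3:**
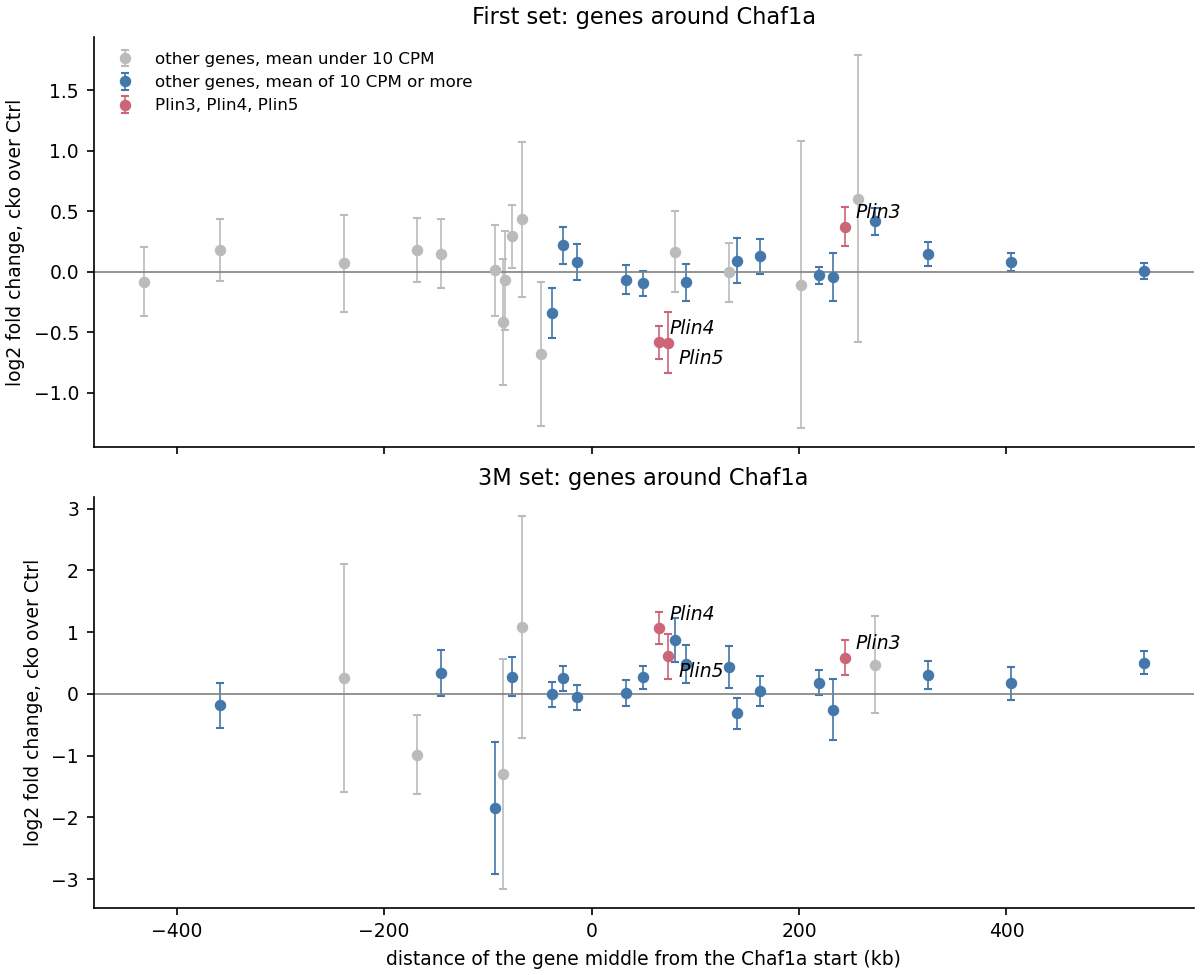
Log2 fold change of Chaf1a cko over Ctrl (bars are standard errors) for tested genes within 500 kb of Chaf1a, against the distance of the gene's middle from the Chaf1a start, in the first set (top) and the 3M set (bottom). Plin4 and Plin5 lie below 0 in the first set and above 0 in the 3M set. No gene among the others was called in either set, where 1.18% and 0.0144% of all tested genes were.

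Genes around the 10 were counted in 7 wider lists of lipid genes, 174 genes in all, chosen with earlier results of these data known. In the first set 2 of 172 tested were called higher and 6 lower (4.65%, against 1.18% of all tested genes), and in the 3M set 0 of 161 were called by edgeR. At an unadjusted p under 0.05, 31 of the 172 passed in the first set and 9 of the 161 in the 3M set, where 10.1% and 6.93% of all tested genes did. The first-set count was 17 by DESeq2, which called 4.21% of the 11387 genes it tested, and between 1 and 5 when any library was left out. The lists were not matched to all tested genes by level, which also include genes at the background level. Fatty acid oxidation genes and PPAR targets held 4 of the called genes, all lower: Pdk4, which restrains glucose oxidation (log2 fold change -0.45, SE 0.09, edgeR adjusted p = 0.0118), the thioesterase Acot2 (-0.46, SE 0.11, adjusted p = 0.0421), the thiolase Acaa2 (-0.31, SE 0.06, adjusted p = 0.0214) and the fatty acid translocase Cd36 (-0.21, SE 0.05, adjusted p = 0.0306). In that list 27 of 35 values were below 0 in the first set (median -0.17), and 20 of 33 were above 0 in the 3M set (median 0.19) with 0 called and 0 at an unadjusted p under 0.05. The list on lipoprotein lipase handling and fatty acid uptake held 2 called genes of 27, both lower, Cd36 again and the lipoprotein receptor Lrp1 (-0.26, SE 0.06, adjusted p = 0.0281). Among lipogenesis genes 1 of 16 rose, the desaturase Scd2 (0.41, SE 0.06, adjusted p = 0.000331), from 266 ± 15.2 to 354 ± 17.3 CPM (SD, n = 3).

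Corticosteroid and fasting responsive genes moved both ways in the first set: the metallothionein Mt1 was called higher (0.58, SE 0.13, edgeR adjusted p = 0.0367), while Irs2 of insulin signalling (-0.27, SE 0.06, adjusted p = 0.023) and Pdk4 were called lower, and 17 of 20 did not pass. The other droplet and lipolysis genes had 0 of 26 called in the first set and 0 of 23 in the 3M set (edgeR), with 2 at an unadjusted p under 0.05 in each. Their most abundant members in the first set were Vps13d, a lipid transfer protein, at 275 ± 4.10 and 283 ± 10.003 CPM, and Mgll, the monoglyceride lipase that ends lipolysis, at 85.7 ± 2.28 in Ctrl and 68.9 ± 9.01 CPM in Chaf1a cko (edgeR adjusted p = 0.168). Glycerolipid synthesis had 0 of 27 and 0 of 25 called, with 5 and 2 at an unadjusted p under 0.05. Its most abundant gene Acsl1, which activates long fatty acids, was at 226 ± 4.76 and 194 ± 10.5 CPM (SD, n = 3, edgeR adjusted p = 0.0859) in the first set. PPARs and other lipid regulators had 0 of 26 called in each set, with 0 at an unadjusted p under 0.05 in either, and their medians were -0.04 and 0.1.

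Summed markers of several cell types differed between the groups, and the sums per library stand beside these results. Summed cardiomyocyte markers (16 genes) spanned 103261 to 106848 CPM in Ctrl and 97491 to 98189 CPM in Chaf1a cko, and 39892 to 51459 CPM in the Ctrl 3M libraries, and 55497 to 61494 CPM in Chaf1a cko 3M. These sums lay lower in all cko libraries of the first set and higher in all of the 3M set, but the heavy chain gene Myh6 and the titin gene Ttn gave 72.6% and 50.6% of them. Over the other 14 markers, a sum taken after these values were seen, the groups overlapped in both sets, at 27381 to 29134 CPM in Ctrl and 27442 to 27578 CPM in Chaf1a cko, and at 21097 to 32931 CPM and 22859 to 27717 CPM in the 3M groups. Of the 16 markers in the first set edgeR called 5 lower, Myh6, Ttn, Ryr2, Atp2a2 and Actc1, and 2 higher, Mybpc3 and Myl3, and 9 of 16 values were above 0. In the 3M set 0 of 16 were called by edgeR, with 4 at an unadjusted p under 0.05, and again 9 of 16 were above 0. The 10 macrophage markers of the 3M set summed to 445 to 561 CPM in the Ctrl 3M libraries, and 282 to 347 CPM in Chaf1a cko 3M. In the first set 10 fibroblast markers summed to 3958 to 4063 and 3322 to 3361 CPM and 7 erythroid markers to 1655 to 2232 and 2296 to 2321 CPM. Of the 10 fibroblast markers edgeR called 5 lower and 0 higher, where 0.435% and 0.74% of all tested genes were. The 8 mural markers summed to 1201 to 1276 and 1517 to 1525 CPM, of which Acta2 gave 52.2%. Without Acta2 the mural groups overlapped, at 633 to 667 and 655 to 678 CPM. Among them edgeR called Acta2 higher (log2 fold change 0.55, adjusted p = 4.08e-07) and Myh11 lower (-0.41, adjusted p = 0.0118), and 3 of the 8 values were below 0. Endothelial sums overlapped in both sets, at 3359 to 3626 and 3395 to 3475 CPM in the first set and at 9246 to 12899 and 9998 to 10644 CPM in the 3M set. Macrophage sums overlapped in the first set, at 90.0 to 101 CPM in Ctrl and 79.9 to 93.2 CPM in Chaf1a cko. Fibroblast sums overlapped in the 3M set, at 1437 to 2539 and 1273 to 1719 CPM, with 0 of 10 markers called by edgeR. Mural sums also overlapped there, at 1040 to 1517 and 1051 to 1217 CPM. The part of these sums in the differences above was not tested.

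Adipocytes express Plin4, Lipe, Lpl, Pnpla2 and Dgat2 strongly, so their markers were read in each library. Adipoq, Lep, Plin1 and Ucp1 had 0 counts in all 6 libraries of the 3M set. Of the 15 listed markers Fabp4, also an endothelial gene, gave 97.3% of the sum, and the sums overlapped between the groups. In the first set Plin1 stood at 1.23 to 2.54 CPM and Adipoq at 0.789 to 3.10 CPM, below the 95th percentile of chemoreceptor genes (5.35 CPM). Lep was at 6.89, 5.85 and 6.62 CPM in Ctrl, above that percentile, and 3.73, 3.14 and 4.19 CPM in Chaf1a cko (log2 fold change -0.81, SE 0.28, edgeR adjusted p = 0.281), and Aqp7, of the glycerol channel, reached 15.6 CPM in 1 Ctrl library. Of the 15 markers, 0 were called by edgeR in the first set, with 2 at an unadjusted p under 0.05 (Lep and Fabp4). Adipoq, Lep, Cfd and Fabp4 were lower in all cko libraries, the direction of Plin4, and Car3 was higher in all. That is 4 of 15 lower and 1 of 15 higher, beside 7.85% and 8.33% of all tested genes. The summed chemoreceptor background was also lower in all cko libraries. The part of these markers in the Plin4 difference was not tested. Fabp4 gave 91.3% of the first-set sum, which lay at 556 to 606 CPM in Ctrl and 497 to 507 CPM in Chaf1a cko. When libraries were scaled to the summed cardiomyocyte markers, an alternative chosen after seeing these sums, Plin4 gave -0.49 for the first set and 0.70 for the 3M set. That scaling applies 1 factor per library to every gene, so it moved the median of all genes to 0.09 and -0.42 and leaves the distance of a gene from that median nearly as it was by construction. With the same shift, the 3M values of Lipe, Dgat1, Fabp3 and Lpl came to lie below 0, at -0.24, -0.31, -0.35 and -0.24.

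**Figure D4:**
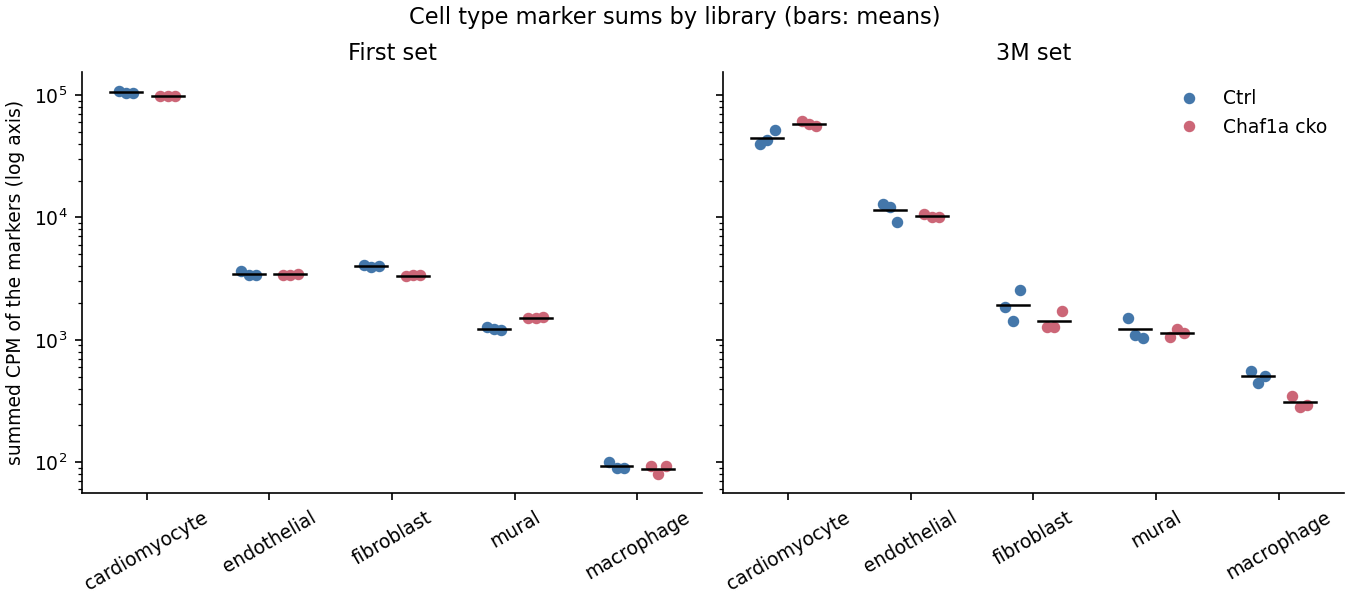
Summed CPM of cardiomyocyte, endothelial, fibroblast, mural and macrophage markers in each library of the first set (left) and the 3M set (right), on a log axis, with bars for group means. Cardiomyocyte sums lay lower in all cko libraries of the first set and higher in all cko libraries of the 3M set, and without Myh6 and Ttn, which gave 72.6% and 50.6% of them, the groups overlapped in both sets.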

How the data were processed

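RNA-seq libraries of mouse cardiomyocytes (4 groups, 3 replicates each) were read from 2 tables of gene counts that the authors deposited as whole numbers per gene symbol with no normalization. Per the submitters' processing notes, reads were handled with FastQC, Trimmomatic and HISAT2 on mm10. No counting program, annotation or strand setting is named in the sources used here. Samples were grouped by their titles. Each table was fitted alone with edgeR 4.0.16 in R 4.3.3: filterByExpr (minimum count 10, minimum total 15), TMM scaling, robust glmQLFit and glmQLFTest, two-sided, Benjamini-Hochberg over all tested genes, threshold 0.05. The interaction of set and genotype was fitted over 12 libraries. CPM values are TMM-scaled. Lengths and coordinates (counted from 1) came from GENCODE vM21 and RefSeq on GRCm38, and 99.2% of symbols matched RefSeq. Standard errors hold counting error and spread between libraries, at 10569325 to 20896673 counts per library.

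The 10 genes, the wider lists and the marker lists were chosen with earlier results of these data known. Named genes were the 10, Chaf1a, called genes of each wider list (at most 6 per list and set) or its most abundant ones, and the 5 profiles nearest to Plin4. Abhd5, G0s2 and Angptl4 were added with their values in view. The alternatives used library size alone, DESeq2 1.42.0 (its size factors and its Wald test), no filter, at least 10 CPM in at least 3 libraries, a replicate block, each library left out and, for shares, counts with no length. Scaling to cardiomyocyte markers, transcript length and perilipin shares without Plin4 were added after seeing the data. Shares of sums that hold Plin4 carry no test. The fits were run on simulated counts with planted changes, where the condition set was only the direction of the fitted change. The power to call a change is not given here.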

Additional observations from a re-analysis of the deposited data

Results flagged for a closer look

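Plin4 moved in opposite directions in the sets: every Chaf1a cko library lay below every Ctrl library in the first set (log2 fold change -0.58), and every Chaf1a cko 3M library lay above every Ctrl 3M library (log2 fold change 1.07). The difference between the sets was not tested, because Plin4 was chosen for it.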

How the results depend on the processing

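Of 395 values of the 9 genes other than Plin4 under the alternatives, 367 kept their direction and side of the threshold and 28 changed sign, all of them values that had not passed the test. With each library left out in turn, the log2 fold changes that changed sign ran in the first set from -0.15 to 0.054 for Plin2, -0.0090 to 0.059 for Fabp3 and -0.025 to 0.019 for Lpl, and in the 3M set from -0.36 to 0.092 for Plin2, -0.17 to 0.28 for Fabp3, -0.022 to 0.23 for Dgat1 and -0.12 to 0.43 for Lipe. The differences between the sets that changed sign ran from -0.27 to 0.15 for Plin2, -0.063 to 0.46 for Plin3 and -0.16 to 0.29 for Fabp3. Scaling to cardiomyocyte markers turned Plin2 to 0.030 and Lpl to 0.094 in the first set and Lipe to -0.24, Dgat1 to -0.31, Fabp3 to -0.35 and Lpl to -0.24 in the 3M set, where Plin4 was 0.70. The filter of 10 CPM turned Fabp3 of the first set to -0.0045. Counts with no length turned the 3M share differences of Plin3 and Plin5 to -0.86 and -0.15 percentage points, and a sum without Plin4 turned that of Plin2 in the first set to -1.72. With each library left out, share differences in points ran in the first set from 0.0689 to 3.17 (Plin2), 9.50 to 12.9 (Plin3), -9.82 to -5.64 (Plin4) and -6.67 to -3.58 (Plin5), and in the 3M set from -18.4 to -5.42 (Plin2), -2.39 to 2.44 (Plin3), 10.02 to 15.8 (Plin4) and -2.21 to 3.15 (Plin5).

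Genes called in the first set numbered 270 (170 higher and 100 lower), 479 with DESeq2, 740 (668 higher and 72 lower) with the cardiomyocyte scaling and 128 to 201 with each library left out, where fewer libraries were fitted. In the 3M set 2 were called, 72 with DESeq2, 6 with no filter, 1 with the cardiomyocyte scaling and 0 to 5 with each library left out. The interaction called 15, 7 with library size alone, 454 with DESeq2, 6 with no filter and 1 to 110 with each library left out. The wider lists held 8 called genes in the first set, 17 with DESeq2, 18 with the filter of 10 CPM and 1 to 5 with each library left out. The cause of these shifts was not tested. The replicate block gave 192 and 0 called genes, 0 for the interaction and 5 for the wider lists, with Plin4 at -0.58 and 1.10. By their titles same-numbered libraries share only a number, which does not say whether they were paired. Their deviations from group means correlated between -0.03 and 0.06. In the 3M set every library correlated best with its own number, and in the first set this was not so. The ranges of adjusted p for the 9 genes over the alternatives began at 0.0547 (Fabp3, first set). Depth limits Plin5 most, with 109 to 278 counts per first-set library.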

Other observations

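Within the 3M set, Lpl, Lipe and Fabp3 varied between libraries in a way that did not follow genotype. Lpl was lowest in Ctrl 3M replicate 3 (2483 CPM) and Chaf1a cko 3M replicate 1 (2736 CPM), the libraries in which Fabp3 was highest (672 and 652 CPM) and Lipe lowest (120.2 and 116 CPM). The ratio of Lpl to Fabp3 counts, which does not depend on scaling, was 9.04, 8.56 and 3.70 for Ctrl 3M and 4.19, 9.16 and 9.88 for Chaf1a cko 3M. In the first set the same ratio stayed between 0.712 and 0.787 in all 6 libraries. The erythroid genes varied as well: their sum was 689, 447 and 1036 CPM in Ctrl 3M and 4012, 3251 and 446 CPM in Chaf1a cko 3M.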
